A study of Rattus norvegicus with 150 samples.

Results

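The genes described here were chosen by 1 library, replicate 2 of the muscles that had carried depleted uranium (DU) for 3 months. A gene was taken if it reached at least 200 CPM (its count scaled to a library total of 1000000) in that library and at least 10 times its highest CPM in any other library of the 150. Of the 32545 genes in the table, 223 met this rule, which is 0.685%. The choice used the measured values of that library, so its values for the 223 genes are a description and no test. The study asked how metal left in muscle changes gene expression over time. RNA was taken from the gastrocnemius, a calf muscle, of male Sprague-Dawley rats with surgically placed metal cylinders, 2 in each limb and 4 in each rat, 1 mm across and 2 mm long. The rats were about 30 days old when bought and had at least 2 weeks to settle before the start. Tantalum (Ta) was the surgical sham, and cobalt (Co), a metal labelled P and DU were each sampled at 1, 3, 6 and 12 months after surgery, and nickel (Ni) at 1, 3 and 6 months. All groups, Ta included, thus carried implants. P is read here as lead, which the design text writes Pb, and the label is kept. There were 17 groups of 8 libraries and 2 of 7 (Ta at 1 month, Co at 6 months). The lowest total count was 12674115, the median 15778710 and the highest 21921859, and replicate 2 of DU at 3 months had 19287675. Which rat gave which library is not in the labels, and p-values therefore cover only the spread from library to library.

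The gene that led the list was albumin (ENSRNOG00000002911), the main carrier protein of blood plasma. In adult mammals albumin is made in the hepatocytes of the liver and secreted into the blood, where it holds much of the osmotic pressure and carries fatty acids, hormones and drugs. Skeletal muscle contains albumin protein that leaks in from the blood, but its fibres are not the main source of the transcript. The table names genes by Ensembl identifier, and the tables used here pair none of the 32545 identifiers with a symbol. Albumin alone could be named, because its identifier came with the rule. The lists of hepatocyte, bile duct, kidney, pancreas and muscle markers therefore could not be read, and any reading of the tissue would rest on 1 named gene. The library is called here by its label, replicate 2 of DU at 3 months, and no tissue is assigned to it.

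The stretch around the start of the albumin gene is shown because albumin leads the list, and it was searched for a motif of hepatocyte nuclear factor 1 and for the CCAAT box, a general promoter element. It runs from 250 bases before to 50 bases after the start of the RefSeq gene Alb on the minus strand of rat assembly GRCr8, chr14:17906930-17907229, and is written 5′ to 3′ along the gene. Capitals mark the motifs that were searched on both strands, which were GTTAAT, a core of the motif bound by hepatocyte nuclear factor 1, and CCAAT, the CCAAT box, which reads ATTGG on the other strand.
Alb: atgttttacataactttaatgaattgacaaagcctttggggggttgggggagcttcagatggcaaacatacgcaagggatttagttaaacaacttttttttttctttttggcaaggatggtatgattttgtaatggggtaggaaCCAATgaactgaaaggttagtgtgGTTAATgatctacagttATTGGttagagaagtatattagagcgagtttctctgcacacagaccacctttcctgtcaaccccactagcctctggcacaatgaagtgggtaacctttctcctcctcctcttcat
CCAAT begins at base 145, GTTAAT at base 169 and ATTGG at base 186, counted from 1 at the left end. GTTAAT occurs on either strand in 7.45% of the 33469 RefSeq promoter windows of the same length, and CCAAT in 37.5%. A match is a description of the letters in this window.

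The 223 genes took 50.1% of all counts in replicate 2 of DU at 3 months (exact 95% interval 50.1% to 50.1% at this depth). Albumin alone had 93179 CPM, or 9.32% of the counts of that library. The 10 highest members held 20.5% of its counts and the 50 highest held 36.3%. The median member had 838 CPM, 100 members were at 1000 CPM or more and 8 at 10000 CPM or more. After albumin the highest member was ENSRNOG00000010410 with 20790 CPM. The list is thus a few very abundant transcripts with a long tail of moderate ones. At its edges the 3 members nearest the ratio threshold stood 10.3, 10.4 and 11.01 times above the highest other library, and the 3 nearest genes left out stood 9.49, 9.32 and 9.27 times above it. The 3 members nearest the CPM threshold had 202, 202 and 211 CPM, and the 3 nearest genes left out for their CPM alone had 193, 192 and 190 CPM. In all, 536 genes reached 200 CPM in the library, and 313 of them were no members, 136 with a ratio of 1 to 10 and 177 with a CPM below the highest other library.

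**Figure D1:**
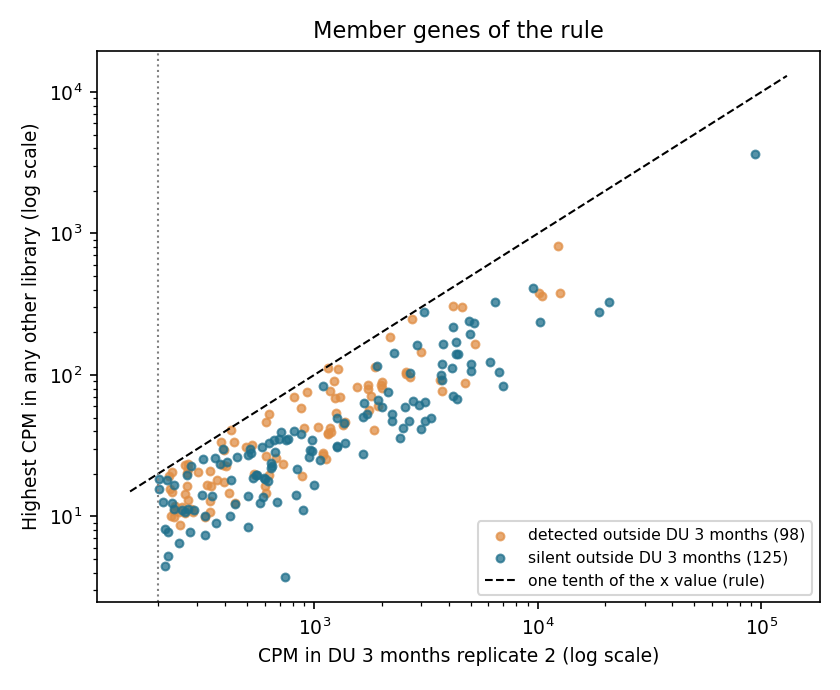
Each point is 1 of the 223 member genes, with its CPM in replicate 2 of DU at 3 months on the x axis and its highest CPM in any other library on the y axis (both log scales), coloured by whether the gene was at 0 in over 50% of the 142 libraries outside DU at 3 months. The dashed line marks the ratio of 10 and the dotted line the 200 CPM that the rule required; albumin is the point at the far right, at 93179 and 3645 CPM.

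The ratio of a member to its highest other library was 10.3 to 199, with a median of 25.6. For 193 of the 223 members that highest other library was replicate 3 of the same group, DU at 3 months. Against the highest of the 142 libraries outside that group the median ratio was 752, and 107 members stood over 1000 times above all 142. Only 1 member stood over 100 times above every other library of the series. Without the other 7 libraries of DU at 3 months the rule would have taken 226 genes, 3 more.

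The abundant genes of the other libraries were low in the same library. The 20 genes with the highest median CPM over the other libraries, a set chosen after seeing the data and without names, took 10.2% of the counts of replicate 2 of DU at 3 months, against 19.5% to 53.8% (median 39.5%) in the others. Of these 20 genes, 12 lay at 0.0320% to 0.865% of their median in the other libraries. ENSRNOG00000017786 had 17.3 CPM there and a median of 34562 CPM elsewhere, and ENSRNOG00000049695 had 11.04 CPM and a median of 34473 CPM. Together the 12 genes summed to 412 CPM, while their lowest sum in any other library was 53694 CPM and their median sum 198789 CPM. Replicate 3 of DU at 3 months had 217044 CPM of the same 12 genes, within the range of the others. The other 8 genes lay at 3.67% to 76.4% of their median. Whether the 12 genes are muscle genes is not known from the files. In bulk samples such as these, fewer cells of a type and less RNA per cell cannot be told apart.

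**Figure D2:**
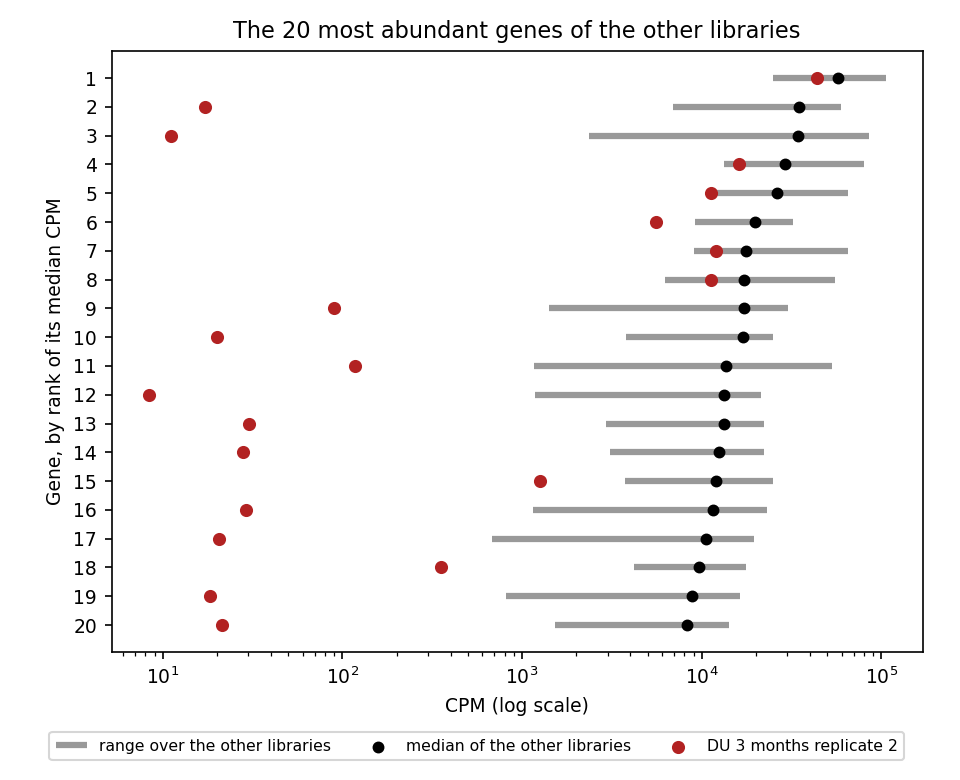
The x axis is CPM on a log scale and the y axis ranks the 20 genes with the highest median CPM over the other libraries of the series. Grey bars span those libraries, black points are their medians and red points are replicate 2 of DU at 3 months, where 12 of the 20 genes sit under 1% of the median.

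The members fell into classes by their level outside DU at 3 months. In 125 of them, albumin among them, more than 50% of the 142 libraries outside that group had no count, and these are called the silent members. They took 35.1% of the counts of replicate 2 of DU at 3 months, and 6 of its 10 highest members were silent. The other 98 members had a median above 0 over the 142 libraries, 44 under 1 CPM, 37 at 1 to 10 CPM and 17 at 10 CPM or more, up to 53.0 CPM. Those 98 took 15.1% of the counts of the library that chose them. Their median CPM there was 770, close to the 870 of the silent members, so the level in that library did not separate the classes. Because muscle libraries hold them too, traces were followed mainly through the 125 silent members, whose counts in other libraries start near 0.

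In DU at 3 months, 6 of the other 7 libraries carried nearly the whole silent list at low level. Its summed CPM was 350539 in replicate 2 and 11284 in replicate 3, followed by 1039 in replicate 4, 909 in replicate 6, 565 in replicate 5, 550 in replicate 7 and 200 in replicate 8. Replicate 1 had 0.793 CPM, with a count for only 7 of the 125 genes. In the 142 libraries outside the group the sum was 0.374 to 78.6 CPM with a median of 1.93 CPM, so the 6 libraries lay above all 142 and replicate 1 lay among them. The silent members were chosen by their zeros in those 142 libraries, so the low sum there follows from the choice and is a description. All 125 genes had a count in replicates 3, 4, 5 and 6, 124 had one in replicate 7 and 120 in replicate 8. The labels give 10 samples to a sequencing lane but do not say which libraries shared one, so a part of the lane in these values was not tested.

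Albumin followed the same order. It had 3645 CPM in replicate 3, 352 in replicate 4, 293 in replicate 6, 201 in replicate 5, 186 in replicate 7 and 66.7 in replicate 8. Replicate 1 had no albumin count, and 3 counts, the limit that a count of 0 allows, would be 0.159 CPM there. The 7 libraries that carried it thus spanned a wide range, and replicate 1 stood apart below them. Albumin made up 26.6% of the silent sum in replicate 2 and 32.2% to 35.6% in replicates 3 to 8. ENSRNOG00000010410 had 327 CPM in replicate 3, 27.3 in replicate 4, 24.1 in replicate 6, 18.4 in replicate 5, 13.4 in replicate 7, 4.39 in replicate 8 and 0 in replicate 1. Its highest CPM in the 142 libraries outside the group was 1.22.

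**Figure D3:**
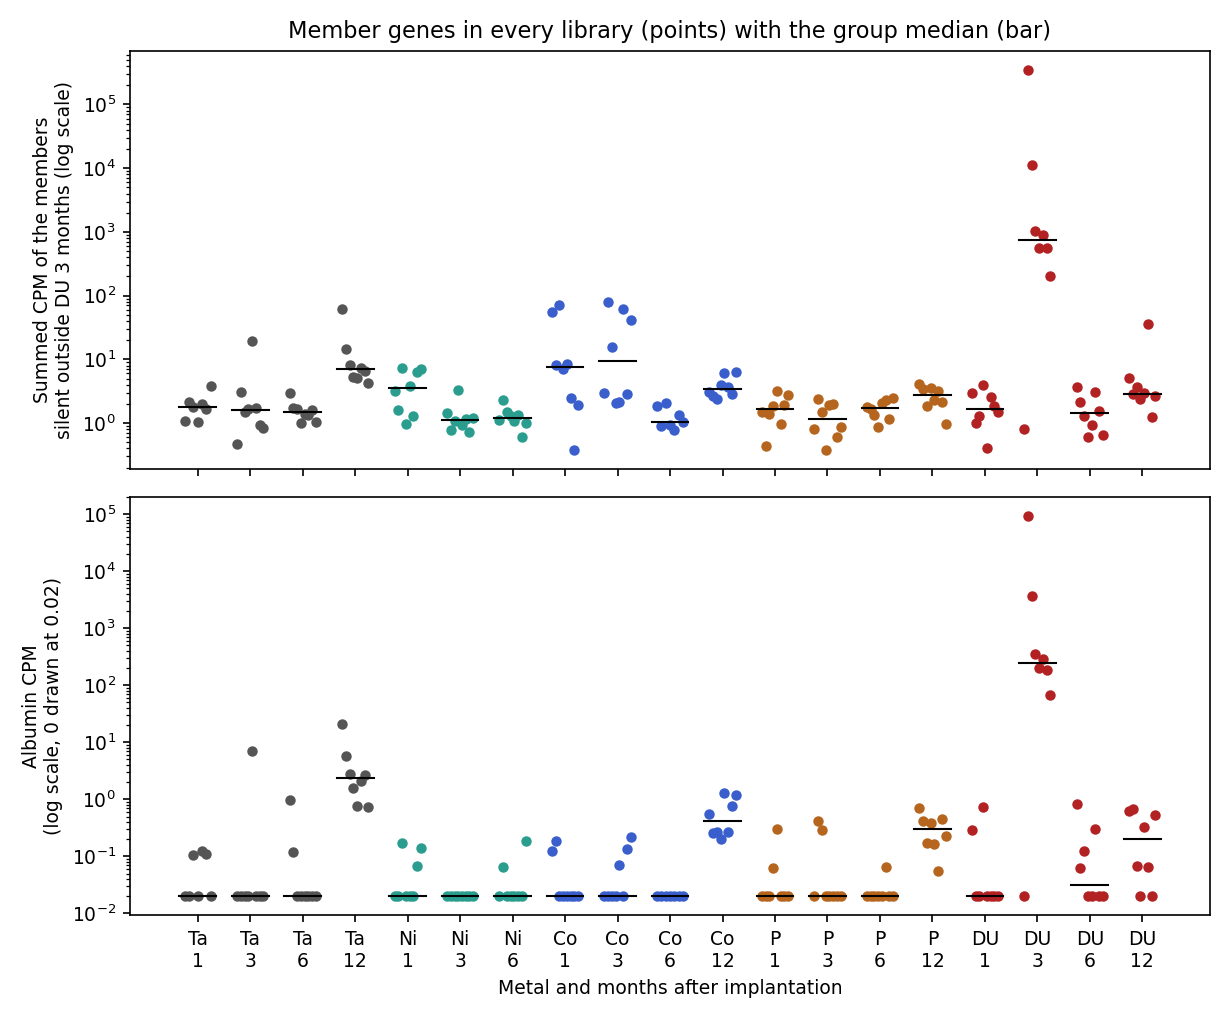
Each point is 1 library, placed by metal and months after implantation, with the summed CPM of the 125 silent members above and albumin CPM below (log scales, albumin at 0 drawn at 0.02, bars are group medians). In DU at 3 months 7 of 8 libraries lie between 200 and 350539 CPM above all other groups, and in Ta at 12 months all 8 libraries have albumin, at 0.729 to 20.5 CPM.

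The genes were not all carried in 1 proportion. Relative to replicate 2, the median silent member stood at 3.42% in replicate 3, and the middle 80% of members spanned 1.67% to 6.00%. The medians of the others were 0.293% in replicate 4, 0.265% in replicate 6, 0.162% in replicate 7, 0.152% in replicate 5 and 0.0475% in replicate 8. The highest member in replicate 3 reached 9.08% (exact 95% interval 8.83% to 9.33%, counting error of its own counts only). The rule required a ratio of at least 10, so the upper end of this spread was capped by the choice. The lowest was ENSRNOG00000050117 with 66 counts, at 0.502% (0.388% to 0.639%). That gene had 738.5 CPM in replicate 2 and 1, 2, 3, 0 and 2 counts in replicates 4 to 8 in that order. Relative to replicate 2 it was thus the lowest silent member in replicates 3 to 7, and it was the 1 member over 100 times above all other libraries, at 199 times.

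**Figure D4:**
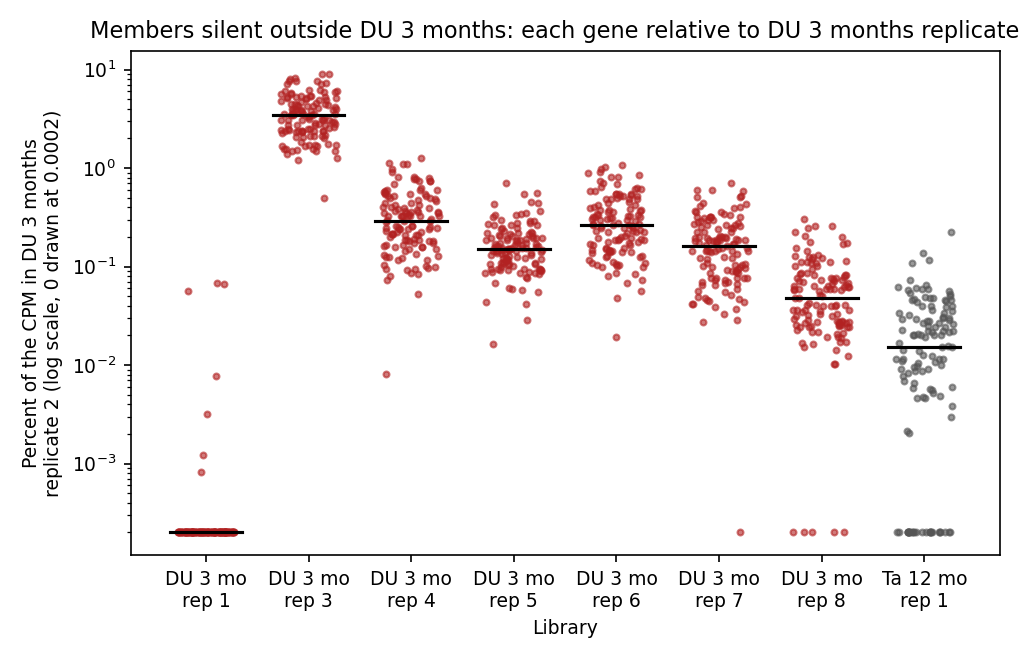
Each point is 1 of the 125 silent members, with its CPM as a percent of its CPM in replicate 2 of DU at 3 months (y axis, log scale, 0 drawn at 0.0002) in the library on the x axis, and the bars are medians. Replicate 3 centres on 3.42%, replicate 8 on 0.0475%, replicate 1 has a count for 7 genes only, and replicate 1 of Ta at 12 months has 99 of the 125.

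The order of the 125 silent members was shared between libraries. The correlations given here are Pearson's r of log2(count + 1) across the 125 genes, which are not independent, and the libraries share gene length and base composition. Against replicate 2, r was 0.787 to 0.905 in the 6 carrying libraries. Among those 6 libraries it was 0.852 to 0.964 over 15 pairs, and in 13 of the 15 pairs it was above both libraries' r with replicate 2. The rule chose the members by their CPM in replicate 2, which affects r with that library, so nothing is read from this difference. Spearman's rho was 0.765 to 0.898 against replicate 2 and 0.825 to 0.954 among the 6. Replicate 1, with a count for 7 of the 125 genes, had an r of -0.088 with replicate 2. Over the 142 libraries outside the group r had a median of -0.03, and 9 of them exceeded 0.3, 6 of these in Ta at 12 months. The silent members were chosen by their zeros in those 142 libraries, which limits what r can show there.

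Outside DU at 3 months, albumin was seen mostly at 12 months. Of 142 libraries, 85 had no albumin count, 24 had 1 to 3 counts and 33 had more. A count was present in 12 of 39 libraries at 1 month, 6 of 32 at 3 months, 9 of 39 at 6 months and 30 of 32 at 12 months. At 12 months these were all 8 libraries of Ta, all 8 of Co, all 8 of P and 6 of 8 of DU. In Ta at 12 months albumin had 20.5, 5.80, 2.81, 1.57, 0.756, 2.12, 2.71 and 0.729 CPM in replicates 1 to 8. Every library of that group lay above the floor of 3 counts, which is 0.137 to 0.237 CPM over the 142 libraries. Of the Ta libraries at 3 months only replicate 5 had albumin, at 7.15 CPM. No test was run between times, and animals of different times were separate cohorts.

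Replicate 1 of Ta at 12 months carried the list more fully than any other library outside DU at 3 months. It had a count for 99 of the 125 silent members, which summed to 60.8 CPM, and albumin was 33.8% of that sum. Its r with replicate 2 of DU at 3 months was 0.674, and with the 6 carrying libraries of that group 0.776 to 0.832. The whole Ta group at 12 months ran from 4.19 to 60.8 CPM of silent members with a median of 7.02 CPM, against medians of 1.59 CPM for Ta at 3 months and 1.51 CPM at 6 months. Replicate 6 of DU at 12 months also had a high sum, 36.0 CPM, but 40.4% of it came from 1 gene and albumin was 0.179% of it.

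Cobalt libraries had a different part of the list. Of the 10 libraries outside DU at 3 months with a silent sum of 10 CPM or more, 6 were Co at 1 or 3 months, 2 were Ta at 12 months, 1 was Ta at 3 months and 1 was DU at 12 months. In the 5 Co libraries with a sum of 40 CPM or more (replicates 1 and 3 at 1 month, and 2, 6 and 8 at 3 months) the 5 highest genes held 75.4% to 90.2% of it, against 43.5% in replicate 2 of DU at 3 months and 45.4% in replicate 1 of Ta at 12 months. The 9 genes that made up those top 5s included none of the top 5 of replicate 2 of DU at 3 months, and albumin was at 0 to 0.220 CPM. ENSRNOG00000010128 reached 25.1 CPM in Co at 3 months (lowest 0, median 1.56), was at 0 in all 8 Ta libraries of that time and had 658 CPM in replicate 2 of DU at 3 months. The 98 members detected elsewhere summed to 1379 to 2109 CPM in the 5 Co libraries named above. Their median sum over the 142 libraries outside DU at 3 months was 551 CPM. In replicate 1 of Ta at 12 months they summed to 440 CPM. Their sum in Co at 3 months was 510 to 2109 CPM with a median of 850, and in Ta at 3 months 419 to 752 CPM with a median of 548.

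Metal and Ta libraries were compared at each time by edgeR's quasi-likelihood test, to ask which members differed between muscle with the metal and muscle with the sham. For DU at 3 months with all 8 libraries, 85 of the 223 members passed the filter on low counts and 0 were called, where the share called over all genes was also 0% (12158 genes, edgeR). All 85 had an unadjusted p under 0.05 and were higher with DU, while 3223 of all genes had such a p. With DESeq2, 170 members were called higher. These values hold the library that chose the members and are given with no weight.

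Without replicate 2, 29 of the 85 members tested were called higher and 0 lower in the 7 libraries left, where 2.12% of all genes tested were called higher and 3.94% lower. Members near 0 in Ta passed the filter largely through the DU libraries, so the count is a description. Of the 125 silent members 4 passed it. The log2 difference of albumin was 9.62 ± 1.80 (SE; adjusted p = 0.0378 by edgeR), with counts in 6 of 7 DU libraries and 1 of 8 Ta libraries. When each of the 15 libraries was left out in turn, albumin was called in 6 fits and not called in 8 (edgeR adjusted p = 0.0567 to 0.0859), with log2 differences of 7.77 to 9.84, and it was not tested without Ta replicate 5. The 8 fits left out DU replicate 3, 4, 5 or 8 or Ta replicate 2, 6, 7 or 8. With all 8 DU libraries DESeq2 gave a log2 difference of 5.93 (adjusted p = 0.106). The number of members called also moved when single libraries were left out. Leaving out 1 more library gave 80 members when it was DU replicate 1, 4 for DU replicate 3, 3 for DU replicate 8 and 0 for DU replicate 4 or 5. It gave 0 for Ta replicate 2, 5, 6, 7 or 8, and 27 to 35 for each of the other 5 libraries. These leave-out counts stand without the share over all genes and are not read as a result about the members.

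At 12 months albumin was lower with P than with Ta. Its level was 0.324 ± 0.212 CPM in the P libraries and 4.63 ± 6.63 CPM in the Ta libraries (SD, n = 8 each), and all 8 P libraries, at 0.0554 to 0.718 CPM, lay below the lowest Ta library at 0.729 CPM. This is a log2 difference of -3.92 ± 0.75 (SE; adjusted p = 0.0124 by edgeR), and of -2.87 without Ta replicate 1 (edgeR adjusted p = 0.00843). Albumin was the 1 member called lower of 70 tested, where 0.452% of all genes tested were called lower. It passed the filter on low counts largely through the Ta libraries, which favours a lower value with P, so the call is a description. With no filter its log2 difference was -3.93 (edgeR adjusted p = 0.0269). Against the same 8 Ta libraries albumin differed on the log2 scale by -3.09 ± 0.72 with Co (edgeR adjusted p = 0.158) and by -4.21 ± 0.85 with DU (edgeR adjusted p = 0.134), neither of which passed the threshold. DESeq2 gave adjusted p = 0.00605 and 0.000115 for these. The 3 comparisons share the Ta libraries, so their values are given side by side only.

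The other calls at 12 months were 4 members higher with P, where 1.93% of all genes tested were called higher. Albumin was the 1 silent member that passed the filter. ENSRNOG00000053086 averaged 74.9 ± 17.4 CPM in P and 43.6 ± 9.77 CPM in Ta libraries (SD, n = 8 each), with a log2 difference of 0.73 ± 0.13 (edgeR adjusted p = 0.00679). Its P libraries ran from 43.5 to 98.5 CPM and its Ta libraries from 32.8 to 62.0 CPM, which overlap. ENSRNOG00000039473 had a log2 fold change of 0.72 ± 0.15 (edgeR adjusted p = 0.0143). With the replicate number as a block albumin alone was still called (edgeR adjusted p = 0.0184). Leaving out P replicate 8 gave 8 members higher and 1 lower. With no filter on low counts 4 members were higher and 5 lower, all 5 among 120 silent members tested, where 0.138% of 21667 genes were called lower. DESeq2 gave 6 higher and 5 lower. The counts without P replicate 8 and with DESeq2 stand without the share over all genes and carry no weight.

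For Co at 3 months 8 of 70 members tested were called higher and 0 lower, where 6.17% of all genes tested were called higher and 0.274% lower. No silent member passed the filter. With no filter 12 members were called higher, 4 of them among 100 silent members tested, where 6.69% of 21763 genes were called higher. ENSRNOG00000046834 averaged 99.0 ± 120 CPM in Co and 1.92 ± 2.96 CPM in Ta libraries (SD, n = 8 each), with a log2 difference of 5.05 ± 1.13 (SE; edgeR adjusted p = 0.0164). Its Co libraries ran from 0.357 to 299 CPM with a median of 39.8, and its Ta libraries from 0.0682 to 8.97 CPM. ENSRNOG00000013552 averaged 30.0 ± 30.5 CPM in Co and 1.18 ± 1.18 CPM in Ta libraries, with a log2 difference of 4.07 ± 0.83 (edgeR adjusted p = 0.0127), and all 8 of its Co libraries lay above the Ta median of 0.705 CPM. Same-numbered Co and Ta libraries at 3 months deviated together in all 8 pairs. With that number as a block in the fit, 0 members and 1 gene of 12429 were called, so the 8 calls hold only without the block. Leaving out Co replicate 2, 6 or 8 gave 5 members, and leaving out replicate 4 or 5 gave 15 or 14. The calls over all genes moved with them, from 801 with all libraries to 365, 380 and 365 without replicate 2, 6 or 8. Without replicate 4 or 5 they were 1534 or 1426.

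In the other 12 comparisons of a metal with Ta, 0 of 65 to 71 members tested were called with edgeR, and 1 to 17 members per comparison had an unadjusted p under 0.05. Co at 1 month had 17 of 71 such members, where 1820 of all 12512 genes had such a p. Ni at 3 months had 1 of 68, where 413 of all 12114 genes did. These counts are not read as a result about the members. The share of all genes called was 0% in both directions in 9 of the 12. For P at 3 months it was 0.0989% higher and 0.239% lower, for Co at 12 months 0.0083% lower and for DU at 12 months 0.00826% higher. The median log2 fold change of the members tested lay between -0.18 and 0.23, and that of all genes between -0.02 and 0.04. Albumin passed the filter in 2 of them, the comparisons of Co and of DU at 12 months given above.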

How the data were processed

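The authors deposited whole-number counts per gene, one table for the 150 libraries, with no normalization. Each library came from 1000 ng of total RNA, prepared with a kit that keeps strand and sequenced as paired reads of 100 bases, per the labels' protocols. The aligner was HISAT2 2.0.5 on Rnor_6.0, with featureCounts 1.5.0-p3 for counting, per the submitters' processing notes. Neither the annotation release nor the strand setting is given in the sources used here, and reads of overlapping or near-identical genes may be shared.

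CPM used library totals without scaling. Comparisons used edgeR 4.0.16 (R 4.3.3) on the 2 groups compared, with filterByExpr, TMM factors, glmQLFit with robust=TRUE, glmQLFTest and Benjamini-Hochberg adjustment over all genes tested, at a threshold of 0.05. An SE was taken as the log2 difference over the root of F. Alternatives were DESeq2 1.42.0, RLE size factors, no filter, a replicate block and left-out libraries. The replicate numbers were taken as pairing only for Co at 3 months, where deviations of same-numbered libraries correlated at 0.113 to 0.462 in all 8 pairs (median 0.177). This cut was made after seeing the values. For P at 3 months the median was higher, at 0.324, with 6 of 8 pairs over 0.1. The labels do not say what a number marks. Intervals (exact, 95%) and floors (3 counts) cover counting error only.

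The members and lists were chosen with earlier results of these data known. The planned symbol lists by role, cell type and muscle could not be applied, as no identifier could be paired with a symbol in the RefSeq tables used (GRCr8). The rule for named genes gave albumin, members at the thresholds, the highest members and up to 3 called members a direction, and since identifiers had no names, at most 2 identifiers for each rise or fall are printed. The 20 abundant genes, ENSRNOG00000050117 and ENSRNOG00000010128 were chosen after their values were seen.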

Additional observations from a re-analysis of the deposited data

Results flagged for a closer look

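In each group the highest and lowest library were set against Dixon's 95% criterion, for the summed CPM of the silent members and for albumin, 36 group values in all. The criterion flags about 1 in 20 groups of normally distributed values. That rate does not hold here, because the sums are skewed and albumin was at 0 in most libraries outside DU at 3 months. In all, 16 libraries' values stood apart, all of them the highest of their group. Those of DU at 3 months replicate 2 follow from the rule that chose the members. For the silent sum these were 350539 CPM in DU at 3 months replicate 2 (next 11284), 60.8 CPM in Ta at 12 months replicate 1 (next 14.4), 36.0 CPM in DU at 12 months replicate 6 (next 5.09) and 19.5 CPM in Ta at 3 months replicate 5 (next 3.11). Ta at 1 month replicate 8 had 3.77 CPM (next 2.16), Ni at 3 months replicate 4 had 3.29 (next 1.46) and Ta at 6 months replicate 1 had 2.98 (next 1.73). For albumin they were 93179 CPM in DU at 3 months replicate 2 (next 3645), 20.5 in Ta at 12 months replicate 1 (next 5.80) and 7.15 in Ta at 3 months replicate 5, where the other 7 libraries had none. Ta at 6 months replicate 1 had 0.971 CPM, DU at 6 months replicate 1 had 0.825 and DU at 1 month replicate 4 had 0.742. P at 1 month replicate 5 had 0.298 CPM, Ni at 6 months replicate 8 had 0.186 and P at 6 months replicate 6 had 0.0659, the last 2 with 3 counts or fewer. DU replicate 2 at 3 months, Ta replicate 1 at 6 and at 12 months and Ta replicate 5 at 3 months stood apart on both measures. Albumin is itself part of the silent sum, so the measures overlap and are not separate readings.

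The silent sum of Co lay on opposite sides of the Ta median at 3 and 12 months. All 8 Co libraries at 3 months (median 9.33 CPM) lay above the median of Ta at that time (1.59 CPM), and all 8 at 12 months (median 3.39 CPM) lay below that of Ta (7.02 CPM). At 12 months all 8 P libraries (highest 4.07 CPM) and 7 of 8 DU libraries also lay below that Ta median. The median of Co at 6 months was 1.04 CPM. This difference was not tested.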

How the results depend on the processing

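The number of members was 294 at 100 CPM, 162 at 400 CPM, 259 at a ratio of 5, 155 at a ratio of 20 and 314 with TMM factors, against 223. The median sum of the members in the other libraries was 555 CPM and became 19.3 CPM over the members with a median under 1 CPM there. The 20 abundant genes stood at 26.0% of their median sum in replicate 2 of DU at 3 months, 0.391% by the median of the genes' own percents and 43.5% with TMM factors, which scale that library by 0.595; this measure was chosen after seeing the data. RLE size factors kept every count of members called within 1.5 times. With DESeq2 the members called became 8 for Co at 1 month, 21 at 3 months, 1 at 6 months and 1 at 12 months. They became 5 for P at 3 months, 11 for P at 12 months, 170 for DU at 3 months and 4 for DU at 12 months. Of all genes with an adjusted p, DESeq2 called 995 of 15274 for Co at 1 month and 2387 of 16697 at 3 months. It called 51 of 14454 for Co at 6 months and 140 of 14038 at 12 months. For P at 3 months it called 994 of 13026. Such a share is not given for P at 12 months or for DU at 3 and 12 months. None of the DESeq2 counts is read as a result about the members. With no filter P at 12 months gave 9. With the replicate block Co at 3 months gave 0 and P at 12 months 1, and the other 13 comparisons gave 0. The labels do not say what a replicate number marks, so pairing is not known for Co at 3 months or for any other comparison. For DU at 3 months, 29 members were called without DU replicate 2, and 0 to 80 when 1 further library was left out. Those counts of 0 to 80 stand without the share over all genes and are not read as a result about the members. Leaving out single libraries, also chosen after seeing the data, gave 5 to 15 members for Co at 3 months, 4 to 9 for P at 12 months and 0 for Co and DU at 12 months. For Co at 3 months those fits called 365 to 1534 of all genes. Albumin was lower with P at 12 months in all 20 alternatives, with log2 fold changes of -4.16 to -2.87 and adjusted p of 6.32e-06 (DESeq2) to 0.0328 (edgeR). These fits share libraries and most kept the filter on low counts, so they are not separate support. The cause of the changes between settings was not tested. The planned muscle list measure was not run, since its symbols could not be matched. Genes at a few counts per library, as albumin was in most libraries outside DU at 3 months, limit what the tests can show. In Ta at 12 months albumin had more than 3 counts in all 8 libraries, and 321 in replicate 1.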
